A study of Mus musculus with 6 samples.

Results

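The hepatocyte identity transcription factors described here are Hnf4a, Foxa1, Foxa2, Foxa3, Cebpa, Cebpb, Onecut1, Prox1 and Nr5a2. They were taken by gene symbol, without regard to their values, and all 9 were found once each among the 18720 rows of the deposited liver tables. Liver poly(A) RNA came from aged male C57BL/6 mice, 1 year old, all of which were fed a high-fat diet. One group was injected into the peritoneum with R159, for which the labels give a code and no structure, and the control group with vehicle, 2 times a week for 12 weeks. Each group had 3 libraries, and the labels give the same strain for both. Whether every library came from its own animal is not stated outright, so a p-value here reflects library-to-library spread, part of which may be technical. According to the title of the series, R159 concerns a non-canonical arm downstream of gp130, and the comparison here asks how the transcripts of the liver's own transcription factors differed between R159 and vehicle.

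Hepatocytes keep their identity through a small set of DNA-binding proteins that control one another's genes as well as those of albumin, apolipoproteins, clotting factors and metabolic enzymes. FOXA proteins open chromatin in the embryonic endoderm and remain bound in adult liver. HNF4A, a nuclear receptor, is the most broadly acting of these factors in the hepatocyte, and C/EBP proteins, ONECUT1 (HNF6), PROX1 and NR5A2 (LRH-1) act with it at liver enhancers. The amount of RNA of these genes does not show how much active protein a cell held. In a piece of tissue, fewer cells of a type and less RNA per cell cannot be told apart.

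Values are normalised estimated counts as deposited, and group values are mean ± SD with n = 3. Log2 fold changes are R159 minus vehicle on the log2(value + 1) scale, from limma with Benjamini-Hochberg adjustment over 16594 tested genes, and a gene is called where the adjusted p was under 0.05. Estimated depth was 51.3 to 55.7 M reads in R159 and 66.0 to 76.7 M reads in vehicle. The lowest value of a member, Onecut1 in R159 replicate 2, corresponded to about 157 reads, so counting noise was small beside the spread between libraries. The libraries also differed by transcript length. Over 11027 coding genes, transcript length was related to how far a gene lay from its mean over all 6 libraries: Spearman's rho was 0.018 for R159 replicate 1, -0.60 for replicate 2 and -0.49 for replicate 3, but 0.34 to 0.50 for the vehicle libraries. R159 replicate 2 stood farthest from the others, with Pearson's r across genes of 0.910 to 0.918 with vehicle. R159 replicates 1 and 3 had 0.937 to 0.942 with vehicle. Among themselves the R159 libraries had 0.939 to 0.949 and the vehicle libraries 0.979 to 0.986, so the R159 libraries were less alike. Each member is therefore also given with the length trend removed.

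Hnf4a was lower in R159 and was the only member called. In 7 of 9 members the fitted value lay below 0, and in 2, Foxa3 and Cebpb, above it. With another scaling the sign of Foxa1 turned (0.018 with equal upper quartiles) and so did that of Foxa3 (-0.027 with equal sums). limma called 1 member lower and 0 higher; at an unadjusted p under 0.05 the numbers were 3 lower and 0 higher. Over all tested genes 27.0% were called (27.4% of those with a coding transcript), 14.2% lower and 12.8% higher, so 1 of 9 is no larger share than that of liver genes in general. The groups did not overlap for 3 members, Hnf4a, Nr5a2 and Prox1, against 46.2% of all tested genes. The median log2 fold change was -0.22 over the members and 0.000686 over all tested genes. With the length trend removed limma called 0 members, and 0 had an unadjusted p under 0.05, so all 9 intervals held 0, while 18.1% of all genes with a length were called (9.91% higher, 8.16% lower).

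**Figure D1:**
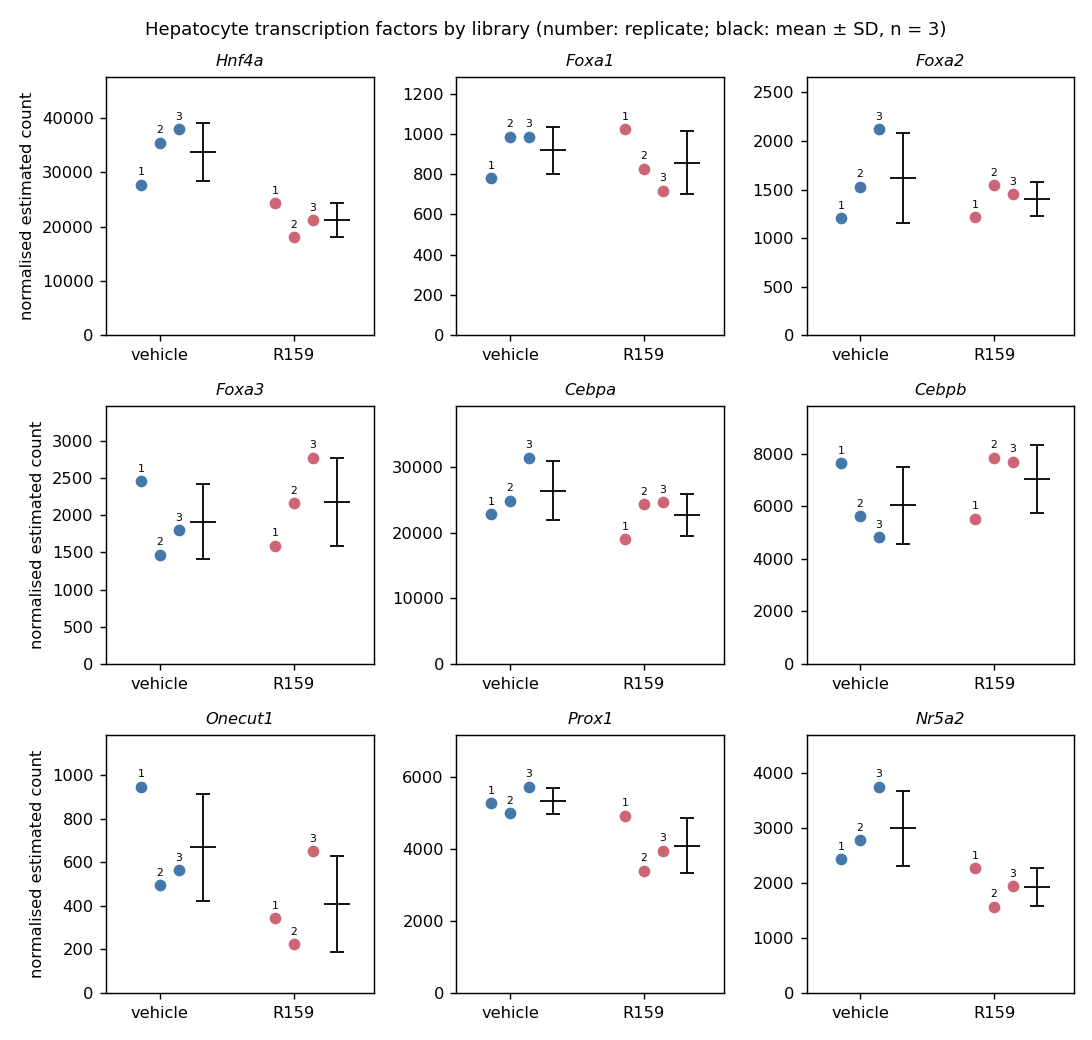
Normalised estimated counts of the 9 transcription factors in each of 6 libraries, with points numbered by replicate and black bars for mean ± SD (n = 3). The R159 and vehicle points separate for Hnf4a, Prox1 and Nr5a2 and overlap for the other members; each panel has its own axis, which starts at 0.

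Hnf4a encodes a nuclear receptor that acts at many liver genes. Its value was 24314, 18094 and 21164 across R159 replicates 1 to 3, against 27755, 35511 and 38074 across vehicle replicates 1 to 3. All R159 libraries lay below all vehicle libraries, and the nearest pair was R159 replicate 1 and vehicle replicate 1. The means were 21190.5 ± 3110.2 and 33780.1 ± 5373, a log2 fold change of -0.67 (SE 0.20, 95% interval -1.13 to -0.21, limma adjusted p = 0.0382), by which Hnf4a fell by 37.2%. The exact two-sided permutation test gave p = 0.1, the smallest that 3 against 3 libraries allow. The call was lost without R159 replicate 2 (-0.56, limma adjusted p = 0.0929), R159 replicate 3 (-0.67, 0.0718), vehicle replicate 2 (-0.63, 0.145) and vehicle replicate 3 (-0.58, 0.13), and with the length trend removed (-0.33, 95% interval -0.68 to 0.02, limma adjusted p = 0.163). Among coding transcripts of 4000 to 5000 nt, the range that holds Hnf4a with 4362 nt, 26.9% were called lower.

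Hnf4a has a pair of start sites in the RefSeq promoter table, and the deposited values do not separate their transcripts. Between them on the opposite strand starts Hnf4aos, a long non-coding RNA whose gene runs back across the upstream start. The promoter windows of these starts, 250 bases before and 50 after, are shown because Hnf4a and its antisense neighbour differed in opposite directions. They are from RefSeq, build GRCm38.p6, at chr2:163506607-163506906 (plus strand) for the upstream Hnf4a start, chr2:163546905-163547204 (plus strand) for the downstream one, which is the liver promoter of adult hepatocytes, and chr2:163541672-163541971 (minus strand) for Hnf4aos. Capitals mark exact matches to short motifs on either strand: ATTGAT for ONECUT in the upstream window and CAAAGTCC for HNF4 in that of Hnf4aos, with none of the motifs searched in the downstream window.
Hnf4a upstream: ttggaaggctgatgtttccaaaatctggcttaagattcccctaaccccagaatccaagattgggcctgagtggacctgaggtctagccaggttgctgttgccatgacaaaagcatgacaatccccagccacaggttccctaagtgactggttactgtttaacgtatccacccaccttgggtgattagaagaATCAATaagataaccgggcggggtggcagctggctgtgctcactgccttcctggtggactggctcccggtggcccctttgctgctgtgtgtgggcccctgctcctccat
Hnf4a downstream: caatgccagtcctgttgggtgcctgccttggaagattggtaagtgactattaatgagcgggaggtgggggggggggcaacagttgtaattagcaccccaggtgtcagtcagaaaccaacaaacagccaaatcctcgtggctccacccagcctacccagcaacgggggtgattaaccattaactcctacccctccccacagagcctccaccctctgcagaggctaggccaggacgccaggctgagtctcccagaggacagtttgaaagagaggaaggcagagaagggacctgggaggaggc
Hnf4aos: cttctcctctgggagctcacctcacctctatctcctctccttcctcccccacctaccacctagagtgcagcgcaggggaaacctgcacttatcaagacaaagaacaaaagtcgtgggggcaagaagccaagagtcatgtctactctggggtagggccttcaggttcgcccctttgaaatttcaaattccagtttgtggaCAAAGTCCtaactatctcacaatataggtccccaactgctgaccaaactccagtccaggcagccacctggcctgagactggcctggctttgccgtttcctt
The ONECUT match began 59 bases before the upstream Hnf4a start. The HNF4 match began 51 bases before the Hnf4aos start. Of 32851 RefSeq promoter windows of this length, 7.54% held ATTGAT and 1.42% CAAAGTCC. Other motifs were searched in the 14 windows of the 9 members. TGTTTAC for FOXA, in 3.65% of all windows, was found in Foxa1 alone. TTGCNNAA for C/EBP, in 10.8%, was found at 1 start of Nr5a2, and CAAGGTCA for NR5A2, in 1.56%, in 0 of the 14. CAAAGTCC was in 0 of these 14 as well, and ATTGAT in 2. A match describes letters in these windows and is not evidence of binding.

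Hnf4aos rose in R159. It was 146, 183 and 176 across R159 replicates 1 to 3, against 34.1, 59.8 and 52.8 across vehicle replicates 1 to 3. Every R159 library was above every vehicle library. The means were 168 ± 19.4 and 48.9 ± 13.3 (log2 fold change 1.80, SE 0.32, limma adjusted p = 0.00653), and the call was kept whichever single library was left out. With the length trend removed it was 0.99 (limma adjusted p = 0.0785). Among tested genes with no coding transcript in GENCODE M21, which include genes whose symbol is absent from it, 21.9% were called higher. The level of Hnf4aos was 0.602% to 1.01% of that of Hnf4a in R159 and 0.123% to 0.168% in vehicle, as raw ratios with no length scaling. In GENCODE M21 the exons of Hnf4a and Hnf4aos share 0 nt. The libraries are stranded, but whether counting used strand is not given in the sources used here.

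**Figure D2:**
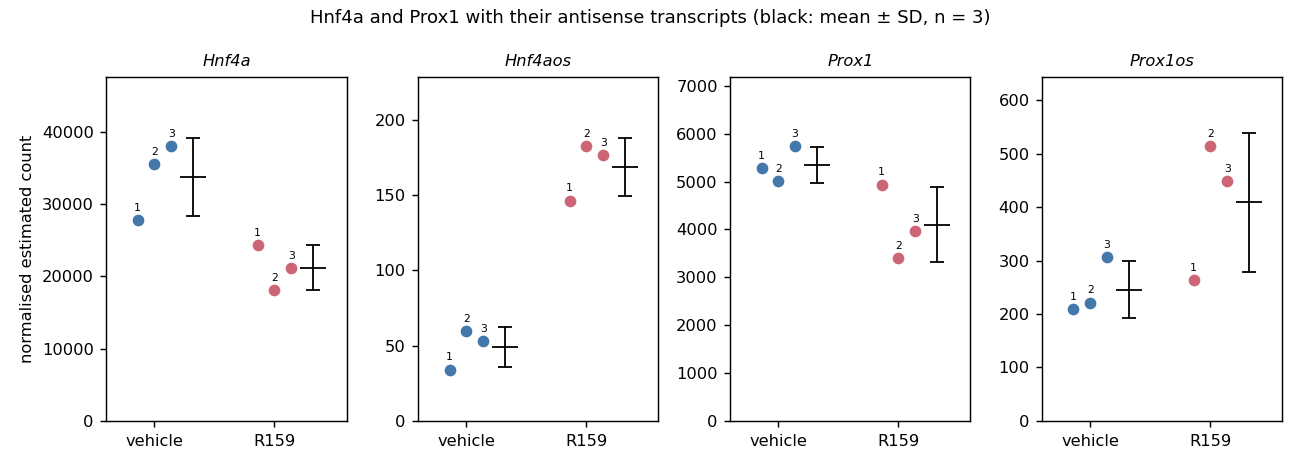
Normalised estimated counts of Hnf4a, Hnf4aos, Prox1 and Prox1os in each library, with points numbered by replicate, black bars for mean ± SD (n = 3) and axes that start at 0. Hnf4a is lower and Hnf4aos higher in all 3 R159 libraries than in any vehicle library, and Prox1os overlaps between groups.

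The 3 FOXA genes encode forkhead proteins that can bind nucleosomal DNA, and none of them was called. Foxa1 was 1026, 828 and 718 across R159 replicates 1 to 3, against 781, 987 and 987 across vehicle, so the highest and the lowest libraries were both R159. Its log2 fold change was -0.11 (95% interval -0.54 to 0.33, limma adjusted p = 0.709). Foxa2, which is also needed for bile acid and lipid control in mouse liver, was 1213, 1547.1 and 1449.9 across R159, against 1208, 1530.1 and 2127 across vehicle. Vehicle replicate 3 was the highest and vehicle replicate 1 the lowest, with all R159 libraries between them. The log2 fold change was -0.18 (95% interval -0.67 to 0.32, limma adjusted p = 0.573). Foxa3, which helps to maintain blood glucose during fasting in mice, was 1589.9, 2158 and 2771 across R159, against 2457, 1469 and 1802 across vehicle. Its log2 fold change of 0.18 (95% interval -0.38 to 0.75, limma adjusted p = 0.61) leaves room for a rise or a fall. Removing the length trend gave 0.079, -0.22 and 0.12 for Foxa1, Foxa2 and Foxa3.

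Cebpa, which maintains metabolic genes in the resting hepatocyte, and Cebpb, which responds to inflammation and is also known as NF-IL6, were not called. Cebpa was 19001, 24371 and 24686 across R159 replicates 1 to 3, against 22866, 24919 and 31494 across vehicle, with the middle libraries of both groups close together. The log2 fold change was -0.22 (SE 0.20, 95% interval -0.67 to 0.23, limma adjusted p = 0.44) and -0.15 with the length trend removed. Cebpb was 5527, 7849.9 and 7695 across R159, against 7652, 5627 and 4821 across vehicle. R159 replicates 2 and 3 and vehicle replicate 1 were high and the other 3 libraries low, so the groups were mixed. The log2 fold change was 0.23 (SE 0.22, 95% interval -0.26 to 0.72, limma adjusted p = 0.453) and -0.056 with the length trend removed. In GENCODE M21 the exons of Cebpb share 312 nt with Tmem189 and those of Cebpa share 51 nt with Gm45091, both on the opposite strand.

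Nr5a2, the receptor that controls bile acid and cholesterol genes, lay just outside the threshold. It was 2266, 1569 and 1947 across R159 replicates 1 to 3, against 2438, 2782 and 3750.3 across vehicle, with no overlap between the groups. The means were 1927 ± 349 and 2990.1 ± 680.3, a ratio of 0.648 (log2 fold change -0.63, SE 0.21, 95% interval -1.09 to -0.16, limma adjusted p = 0.0521). It was called without R159 replicate 1 (-0.75, limma adjusted p = 0.0313), and with the length trend removed its value was -0.25 (limma adjusted p = 0.307).

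Prox1, a homeodomain factor of hepatocytes and lymphatic endothelium, was 4940, 3406 and 3965 across R159 replicates 1 to 3, against 5279, 5007 and 5747 across vehicle. The groups did not overlap, though R159 replicate 1 was close to vehicle replicate 2. The log2 fold change was -0.40 (SE 0.17, 95% interval -0.78 to -0.01, limma adjusted p = 0.116), and it was called without R159 replicate 1 (-0.54, limma adjusted p = 0.0246). Prox1 has the longest transcript of the 9, 7913 nt, and removing the length trend turned its sign (0.12, 95% interval -0.13 to 0.38). Its antisense transcript Prox1os was 264, 514 and 448 across R159 replicates 1 to 3, against 209, 221 and 306 across vehicle (log2 fold change 0.70, limma adjusted p = 0.103). The exons of the pair share 133 nt in GENCODE M21. Prox1os was called without R159 replicate 1 (0.99, limma adjusted p = 0.0186), and gave -0.12 with the length trend removed.

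Onecut1, a cut homeodomain factor of hepatocytes and bile ducts, had the lowest level and the widest interval. It was 342, 225 and 652 across R159 replicates 1 to 3, against 947, 494 and 563 across vehicle. R159 replicate 3 lay above 2 of the vehicle libraries, so the groups overlapped. The log2 fold change was -0.79 (SE 0.39, 95% interval -1.67 to 0.08, limma adjusted p = 0.154), and without R159 replicate 3 it was -1.20 and called (limma adjusted p = 0.0371). That was the 1 call in 18 alternatives, over which the value ran from -1.20 to -0.375. With the length trend removed it was -0.50 (95% interval -1.39 to 0.39, limma adjusted p = 0.398).

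**Figure D3:**
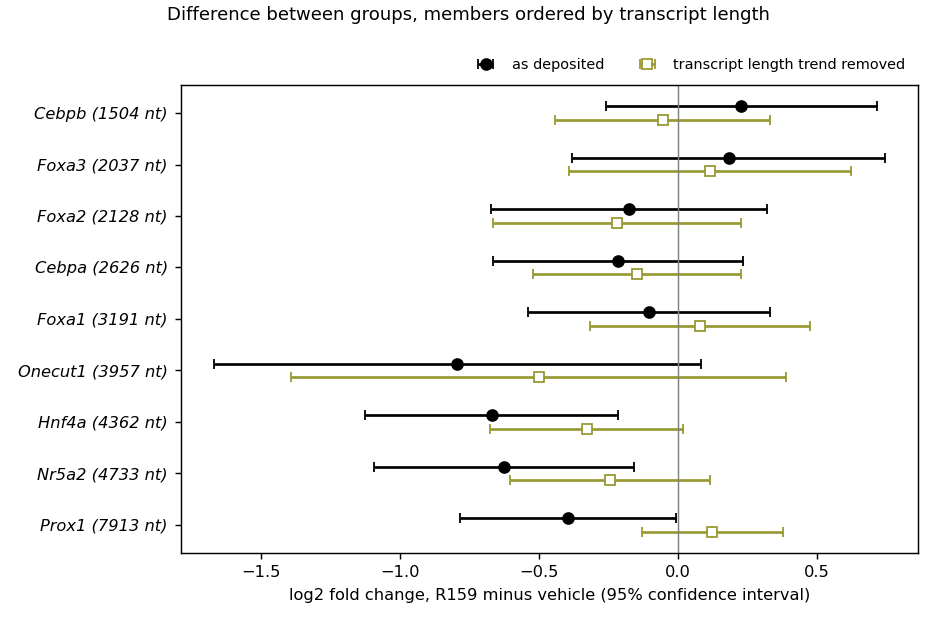
Log2 fold change of each member, R159 minus vehicle, with its 95% confidence interval, as deposited (filled circles) and with the transcript length trend removed (open squares), ordered from the shortest transcript (Cebpb, 1504 nt) to the longest (Prox1, 7913 nt). As deposited, the intervals of Hnf4a, Nr5a2 and Prox1 lie below 0, and with the length trend removed all 9 intervals hold 0.

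Among the members, those with short transcripts had values near or above 0 and those with long ones values below it. Across the 9 genes Spearman's rho between log2 fold change and transcript length was -0.78, and over 11027 coding genes it was -0.50; genes of the same libraries are not independent replicates. The 4 members of lowest fold change, Onecut1, Hnf4a, Nr5a2 and Prox1, were also those with the 4 longest transcripts, 3957 to 7913 nt. Depth differed between the groups as well, and mitochondrially encoded genes held 8.42% to 13.6% of the values in R159 and 5.01% to 7.43% in vehicle. The part of these differences in the members' values was not tested beyond the length correction.

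**Figure D4:**
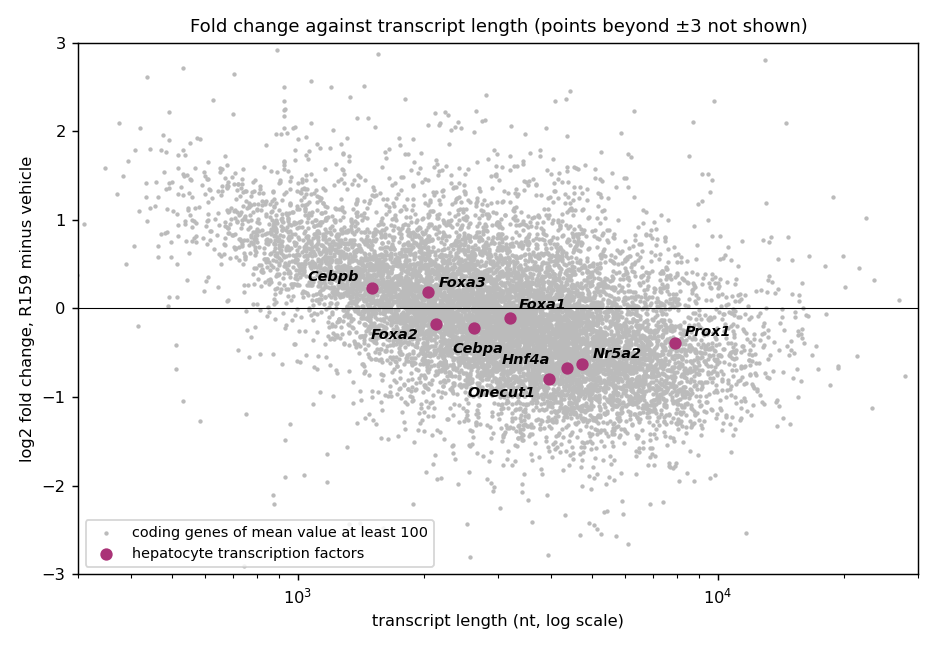
Log2 fold change, R159 minus vehicle, against transcript length on a log axis, for coding genes of mean value at least 100 (grey) and for the 9 transcription factors (coloured and named). The members follow the downward slope of the other genes, from Cebpb at 1504 nt to Prox1 at 7913 nt, and lie within the grey cloud.

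Divided by transcript length, levels ran in the same order in both groups: Cebpa, Hnf4a, Cebpb, Foxa3, Foxa2, Prox1, Nr5a2, Foxa1 and Onecut1. In vehicle, Cebpa had 10063 ± 1716 per kilobase and Hnf4a 7744 ± 1232, ranges of mean ± SD that overlapped. Cebpb followed with 4011 ± 970.1 per kilobase. Foxa3, Foxa2, Prox1 and Nr5a2 formed a middle group in vehicle, from 937 ± 247 down to 632 ± 144 per kilobase, in which neighbours overlapped. Foxa1 (288 ± 37.3) and Onecut1 (169 ± 61.7) stood apart below them. In R159, Cebpa (8639 ± 1217 per kilobase) no longer overlapped Hnf4a (4858 ± 713), while Hnf4a and Cebpb (4670.1 ± 864) did overlap. These levels describe RNA per length of the longest coding transcript, and a gene that uses a shorter one would rank higher.

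After centring each gene on its own mean, Hnf4a and Nr5a2 differed by a root mean square of 0.103 on the log2 scale, the smallest difference of any pair of members, followed by Foxa2 and Cebpa with 0.112. Prox1 lay 0.187 from Nr5a2 and 0.193 from Hnf4a, Foxa3 and Cebpb lay 0.194 apart, and Onecut1 was at least 0.552 from each other member. Among 11155 tested genes of mean value at least 100, one of the 3 profiles nearest to Hnf4a was that of Uxs1 (0.0555). Nearest to Cebpa was Larp1b (0.038), to Foxa2 the endoplasmic reticulum chaperone gene Hspa5 (0.0728), and to Nr5a2 Cyb5b (0.0571). Gata6, which encodes a GATA transcription factor, was also near Cebpa (0.0646). Foxa1 was nearest to Rnf170 (0.0554) and Prox1 to Hnrnpll (0.0495). Cebpb was nearest to Faap24 (0.0709) and Foxa3 to Plp2 (0.104), and the haptoglobin gene Hp, which encodes an acute phase protein, was also near Foxa3 (0.134). For Onecut1 even the nearest profile, that of Bicc1, was 0.136 away. These distances rest on 6 libraries in 2 groups and describe likeness of levels alone.

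Of 30 partner transcription factors of hepatocytes, 4 rose and 6 fell, against 12.8% and 14.2% of all genes, with a median of -0.17. The split was 1 higher and 9 lower with libraries scaled to equal sums, and 5 and 5 with equal upper quartiles. Ppara, the receptor that switches on fatty acid oxidation, fell from 5763 ± 817 to 1532 ± 675 (log2 fold change -1.99, SE 0.27, limma adjusted p = 0.0036). Mlxipl, which encodes the sugar-responsive factor ChREBP, rose from 10616 ± 3261 to 29036 ± 7548 (1.46, SE 0.26, limma adjusted p = 0.00595). Both kept their call in all 18 alternative settings. The other factors that rose were Nr1i3, the xenobiotic receptor CAR (1.20), the repressor gene Bcl6 (1.04) and Klf15 (0.72), a factor of amino acid and glucose metabolism. Foxo1 (-0.95), Rxra (-0.87), Zhx2 (-0.86), Rora (-0.77) and Nr2f6 (-0.52) fell. Rxra encodes the shared partner of many nuclear receptors, and Zhx2 a repressor of fetal liver genes in mice. Of these, Nr1i3, Bcl6, Klf15 and Nr2f6 kept their call with the length trend removed, and Foxo1, Rxra, Zhx2 and Rora lost it (limma adjusted p = 0.0519 to 0.246). Without single libraries, calls were lost for Bcl6, Klf15 and Nr2f6 (4 of the 6 libraries each), Nr1i3 (without R159 replicate 2 or vehicle replicate 3), Rxra and Rora (vehicle replicate 3) and Zhx2 (vehicle replicate 2). The count of 10 called partners was 5 without vehicle replicate 3 and 7 to 9 without any other library. The direct partners Cebpd (log2 fold change 0.78, limma adjusted p = 0.146) and Nr0b2, the corepressor SHP (0.52, 0.406), were not called.

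Of 19 HNF4A targets 1 rose and 3 fell, against 12.8% and 14.2% of all genes, with a median of -0.02. At an unadjusted p under 0.05 limma gave 5 higher and 3 lower, and the split of calls was 1 higher and 4 lower with equal sums and 2 higher and 1 lower with equal upper quartiles. Apob, the structural protein of very low density lipoprotein, was 114831, 112021 and 113755 across R159 replicates 1 to 3, against 224461, 262167 and 245036 across vehicle (log2 fold change -1.10, SE 0.25, limma adjusted p = 0.0153). The groups were far apart, but Apob lost its call without vehicle replicate 2 (limma adjusted p = 0.0836) or 3 (0.0515) and with the length trend removed (-0.68, 0.103). Mttp (-0.65, limma adjusted p = 0.03), which loads lipid onto apolipoprotein B, and the pyruvate kinase gene Pklr (-0.75, 0.031) fell, and Apoc3, an inhibitor of lipoprotein clearance, rose (1.11, 0.0258). Without single libraries the number of called HNF4A targets ran from 0 (without vehicle replicate 2) over 1 (vehicle replicate 3) and 2 (R159 replicate 3 or vehicle replicate 1) to 7 (R159 replicate 1), and with the length trend removed it was 1, higher, and none of these 4 genes (for Apoc3 the log2 fold change was then 0.15, limma adjusted p = 0.621). Mttp and Pklr each lost their call on leaving out any one of 4 libraries (limma adjusted p = 0.0565 to 0.123), and Apoc3 on leaving out any library but R159 replicate 1 (0.0585 to 0.0896).

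Of 12 C/EBP targets 6 rose and 0 fell, against 12.8% of all genes higher, with a median of 0.61. At an unadjusted p under 0.05 limma gave 6 higher and 0 lower. Sds, the serine dehydratase that feeds amino acids into glucose synthesis, rose from 5912 ± 975 to 16227 ± 4963 (log2 fold change 1.42, SE 0.25, limma adjusted p = 0.0062) and kept its call in all 18 alternative settings. Arg1, the arginase of the urea cycle, rose by 1.19 (limma adjusted p = 0.0145), and Pck1, the gateway enzyme of glucose synthesis, by 0.86 (0.0391). Tat, tyrosine aminotransferase (1.23, limma adjusted p = 0.0464), the acute phase gene Orm1 (0.83, 0.0283) and the hepcidin gene Hamp (1.79, 0.0472) were the others. Hamp overlapped between groups. Arg1 lost its call without vehicle replicate 1 (limma adjusted p = 0.0585) or 2 (0.0645), Orm1 and Hamp on leaving out any one of 4 libraries each, and Pck1 whichever library was left out (0.0554 to 0.208). With the length trend removed 3 of the 12, Sds, Arg1 and Pck1, were called, where 9.91% of all genes were higher, and Orm1 was -0.049. The count of 6 was 1 without vehicle replicate 1 or 2, 2 without R159 replicate 3 or with libraries scaled to equal sums, 3 without R159 replicate 2 and 4 without R159 replicate 1 or vehicle replicate 3.

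The 8 FOXA targets share Alb, Pck1, Tat, G6pc1 and Cps1 with the C/EBP list, so the lists are not separate evidence. Of the 8, Pck1 and Tat were the 2 called, both higher, against 12.8% of all genes higher. With the length trend removed 1, Pck1, was called, where 9.91% of all genes were higher. Without vehicle replicate 3 Tat was called (limma adjusted p = 0.0262), but leaving out any other library ended its call (0.0609 to 0.16). With equal sums 0 of the 8 were called. Albumin, Alb, was 3230000 to 4790000 in R159 and 2700000 to 4050000 in vehicle (0.28, limma adjusted p = 0.806), and the carrier gene Ttr gave 0.78 (0.152). Cps1, the first enzyme of the urea cycle (-0.48, limma adjusted p = 0.213), and G6pc1, glucose-6-phosphatase (0.40, 0.306), were not called. The bile acid enzymes and NR5A2 targets Cyp7a1 (0.32, limma adjusted p = 0.654) and Cyp8b1 (-0.04, 0.912) were not called, and Cyp7a1 was called without vehicle replicate 1 (0.99, 0.0461).

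**Figure D5:**
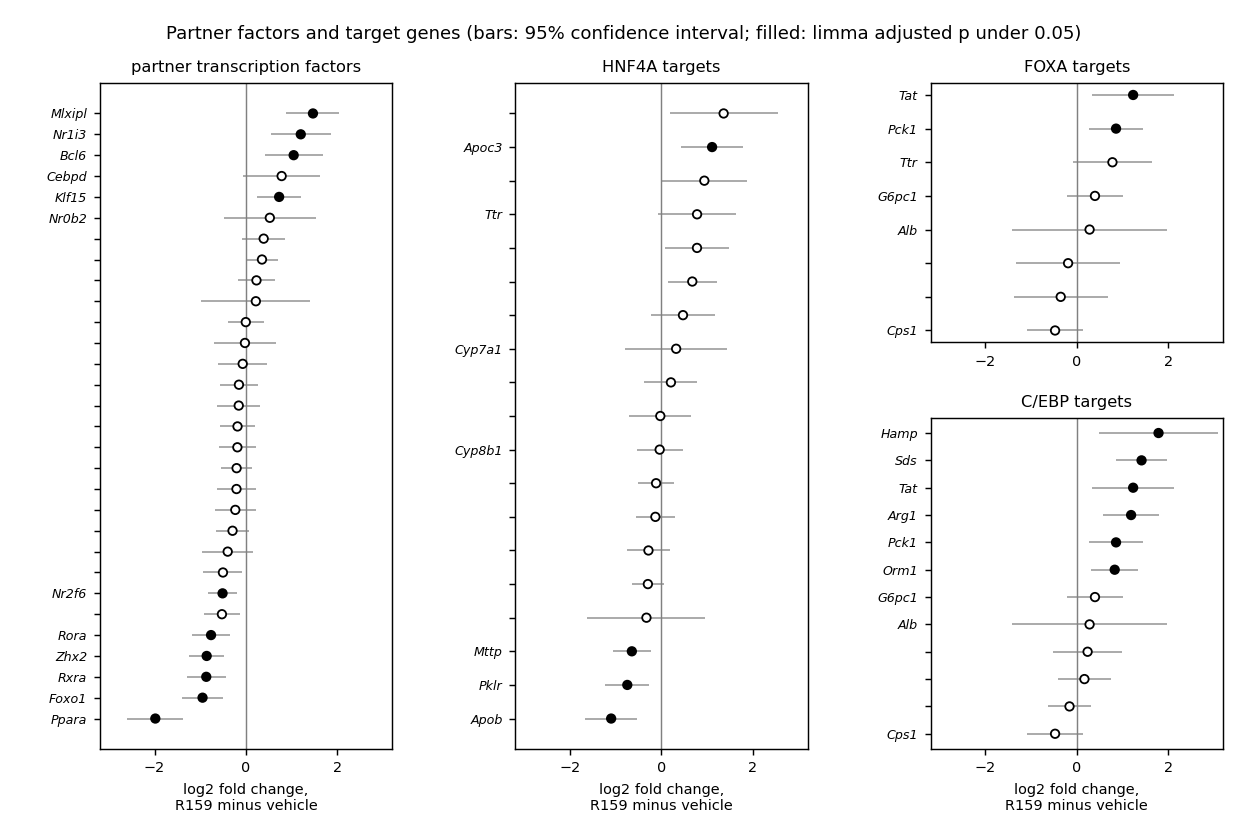
Log2 fold changes, R159 minus vehicle, with 95% confidence intervals, of 30 partner factors and of known targets of HNF4A (19), FOXA (8) and C/EBP (12), where filled points were called by limma and the genes given in the text are named. Filled points lie on both sides of 0 among partner factors and HNF4A targets, and above 0 among C/EBP targets, where 6 are called.

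The tissue label was checked by whether its markers had values. Of 12 hepatocyte markers 11 were listed, and 0 of these were at 0 in any library. Counts of calls are a separate matter, and those below stand against 12.8% of all tested genes higher and 14.2% lower. Of the 11 hepatocyte markers 0 rose and 1, Apob, fell, no larger a share than that. Among 8 tested fetal liver genes 1 fell, the imprinted non-coding RNA H19 (31.9 ± 14.7 against 127 ± 56.1, log2 fold change -1.94, limma adjusted p = 0.0217). The H19 call was lost without R159 replicate 2, vehicle replicate 1 or vehicle replicate 3 (limma adjusted p = 0.0566 to 0.0931). At an unadjusted p under 0.05 limma gave 3 fetal genes lower and 0 higher, and the median of the list was -0.77. Without single libraries the number called ran from 0 to 4. Other cells of the liver share some of these factors. Of 7 markers of cholangiocytes, which also express Onecut1 and FOXA genes, 2 fell and 1 rose, and their summed value was 16631 to 28321 in R159 and 35330.3 to 63180.3 in vehicle, lower in each R159 library. Most of that sum was Krt8 (13958 to 24061 against 29461 to 49320), which fell, while Krt7 rose (log2 fold change 1.32, limma adjusted p = 0.0251). Krt8 lost its call without vehicle replicate 1 (limma adjusted p = 0.0645) or 2 (0.0738), and Krt7 without R159 replicate 3 or any one vehicle library (0.0504 to 0.097). Of 5 lymphatic endothelial markers, a cell type that expresses Prox1, 1 rose and 0 fell (summed value 918 to 2156 against 1713 to 2455). At an unadjusted p under 0.05, 1 was higher and 1 lower. Most of that sum was Flt4 and Lyve1 (log2 fold changes -0.59 and -1.17), whereas the median of the list was 0.78. Of 6 neutrophil markers, which bears on Cebpb, limma called 0, with 2 higher at an unadjusted p under 0.05 (428 to 1250.1 against 213 to 512). Among markers of other cells, 4 of 5 erythroid genes rose (40519 to 59895 against 12915 to 21814), 3 of 6 stellate cell genes fell (10390 to 22317 against 15720 to 28082) and 2 of 6 Kupffer cell genes fell (9003 to 10920 against 10179 to 16279). The stellate genes that fell were Col1a1, Col3a1 and Reln, and Reln overlapped between groups. Dcn (log2 fold change 0.28), Des (0.40) and Lrat (-0.34) were not called. Without R159 replicate 1 or 2, or vehicle replicate 1 or 3, the stellate count was 1. Median transcript length was 699 nt for the erythroid list and 5457.5 nt for the stellate cell list. With the length trend removed 1 erythroid gene was called higher, 1 stellate cell gene lower and 2 Kupffer cell genes lower. Cholangiocyte markers then gave 1 higher and 3 lower, and fetal liver genes 0 higher and 2 lower. Over all genes with a length, 9.91% were then higher and 8.16% lower. In the Kupffer list 2 genes were higher at an unadjusted p under 0.05, Marco (log2 fold change 3.07, limma adjusted p = 0.0619) and Timd4 (2.09, 0.0872), with no overlap between groups. Marco was called without vehicle replicate 3 (limma adjusted p = 0.0428). Of 6 sinusoidal endothelial genes, 1 listed adipocyte gene and 1 tested pancreatic acinar gene, limma called 0; at an unadjusted p under 0.05, 1 sinusoidal gene was higher and 1 lower and 0 of the others passed. The pancreatic genes Cpa1 and Ctrb1 were at 0 in some libraries, and Ccl21a, the lymphatic gene called higher, was 6.43e-10 in vehicle replicate 1, in effect 0; without that library Ccl21a was not called (limma adjusted p = 0.0953), nor without R159 replicate 2 or 3 or vehicle replicate 3 (0.0853 to 0.127). The part of these cells in the members' values was not tested.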

How the data were processed

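Mouse liver poly(A) RNA was sequenced as 6 stranded paired-end libraries of 50 bp reads (per the labels). Tools in the submitters' processing notes are STAR 2.7.8a and cutadapt, FastQC 0.11.9, R 4.2.3 and a DESeq2 version written as 3.5, and mm39 is the build named. No counter, annotation, gene filter or strand setting is stated in them. The deposited values are a signal: estimated counts, in part fractional, divided by 1 factor per library. Low values fell on steps of 1 read per library, which gave the depth, but below 200 reads the share of values within 0.02 of a whole read was 67.8% to 76.0%, too low for a count model.

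Genes of mean value at least 10 were tested (16594; 2126 were not) on the log2 scale after adding 1, using limma 3.58.1 (R 4.3.3), with a mean-variance trend in eBayes and a model of group alone. Single members were also put to an exact two-sided permutation test over 20 splits. Transcript lengths (longest coding transcript) came from GENCODE M21, another build than mm39, for 95.5% of tested genes. To remove the length trend, a lowess fit (span 0.3) of each gene's deviation against log2 length was subtracted, library by library. Intervals are 95% from limma's moderated SE. Alternatives changed the pseudocount, filter, scaling, eBayes trend, weights, block or length correction, or left out 1 library. The share called among coding transcripts of 4000 to 5000 nt was chosen after seeing the data. On simulated data the code was tested too. Promoter windows are RefSeq's, GRCm38.p6, with motifs chosen with these sequences in view; all 9 members matched. The members, gene lists and tests were chosen with earlier results of these data known. The rule for named genes took all members, at most 4 called genes of smallest p per list, targets on more than 1 list, Cebpd, Nr0b2, Ppara and other direct partners, and 3 genes of nearest profile per member; Bcl6, Klf15, Nr1i3, Rxra, Rora, Nr2f6, Hamp, Prox1os, Marco and Timd4 were named after their values were seen. A few genes it took are not reported here. Plots were made in Python 3.11.15 with matplotlib 3.10.9.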

Additional observations from a re-analysis of the deposited data

How the results depend on the processing

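Over 18 alternatives the count of called genes, 4479 (2125 higher, 2354 lower), moved to 2864 with the length trend removed (1571 higher, 1293 lower) and 2526 with that and the replicate block (1400 and 1126), while eBayes without trend called 1443 lower. It ran from 1854 to 5420 without single libraries: 2498 without vehicle replicate 1, 1854 without vehicle replicate 2 and 2185 without vehicle replicate 3. Scaling moved the split, to 1174 higher and 2906 lower with equal sums and 2694 and 1693 with equal upper quartiles, with shifts of the median over all genes of -0.206 and 0.123. The count of 1 called member became 2 with a pseudocount of 8, a minimum mean of 50, equal sums or sample weights, where Nr5a2 joined Hnf4a (-0.62, -0.63, -0.83 and -0.57), became 0 with equal upper quartiles, eBayes without trend, the replicate block or the length trend removed (with or without the block), and ran from 0 to 3 without single libraries. Hnf4a stayed below 0 in all 18 alternatives (-0.88 to -0.33) and past the threshold in 9. With the replicate block its log2 fold change was -0.67 (limma adjusted p = 0.0532) and 3945 genes were called; called HNF4A targets, 4 without it, were 6 with it, and 5 with equal sums. Same-numbered samples deviated with r = -0.21, 0.055 and 0.13, and not every sample correlated best with its own number. With 3 libraries a group these correlations cannot decide whether a shared number also means shared processing.

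Signs turned with the length trend removed, alike with and without the block, for Foxa1 (0.079), Cebpb (-0.056), Prox1 (0.12), Prox1os (-0.12), Orm1 (-0.049) and Nr0b2 (-0.025). They turned with equal upper quartiles for Foxa1 (0.018) and Cyp8b1 (0.085), with equal sums for Foxa3 (-0.027) and with sample weights for Cyp8b1 (0.17). Without single libraries the range crossed 0 for Foxa1 (-0.24 to 0.014), Foxa2 (-0.37 to 0.038), Foxa3 (-0.011 to 0.39), Cyp7a1 (-0.22 to 0.99) and Cyp8b1 (-0.20 to 0.18). The causes were not tested. With 3 libraries a group and at least about 157 reads per library, a member's 95% interval spans 0.78 to 1.75 on the log2 scale.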
